A study of Mus musculus with 24 samples.

Results

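The comparison described here is the genotype by stage interaction in the mammary gland of mice carrying the R96C allele of SOCS2. For each gene it is the knock-in minus wild-type difference at pregnancy day 18, minus the same difference in virgins. It uses all 24 of the 24 arrays in the series, 1 animal each, chosen as the samples of the 4 groups that the labels give. Total RNA of the number 4 inguinal gland, with the lymph node taken out, was hybridised to 1-colour Agilent mouse arrays. All animals were C57BL/6 females. WT_V8w comprised 7 wild-type virgins aged 8 weeks, and SOCS2_KI_V8w comprised 7 homozygous R96C knock-in virgins of the same age. WT_G18 and SOCS2_KI_G18 comprised 5 wild-type and 5 homozygous knock-in mice at pregnancy day 18. The labels give no age for the day-18 mice, so age and pregnancy cannot be told apart.

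SOCS2 is a feedback inhibitor that is itself induced by STAT5. Its SH2 domain binds phosphorylated receptors for growth hormone and related cytokines, and its SOCS box recruits a ubiquitin ligase; the arginine replaced by cysteine in R96C lies in the SH2 domain. Growth hormone and IGF1 support ductal growth in the virgin gland, whereas prolactin acting through STAT5A drives alveolar development and milk gene expression in pregnancy. The interaction asks whether the genotype difference is the same at both stages.

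Values are log2 processed signals relative to the 75th percentile spot of the same array, so 1 unit is 2-fold. A positive interaction means that the knock-in minus wild-type difference was higher at day 18 than in virgins. Errors after ± are standard errors of the fit unless marked otherwise. A gene was called at a Benjamini-Hochberg adjusted p under 0.05 over 22382 genes. In whole tissue, fewer cells of a type and less RNA per cell cannot be told apart.

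Of the knock-in arrays, 3 stood apart, and results are given with and without them. On knock-in virgin 376 the negative-control spots averaged 346.5 intensity units, against 27.94 to 50.2 on the other 23 arrays, and 57003 spots were well above background, against 33374 to 43055. Knock-in day-18 array 184 had the highest background and spot count of the other 23. Knock-in virgin 198 had a skeletal muscle score of 6.35, where a score is the mean log2 value of a list's members, and a secretory luminal score of -3.71, the lowest of all arrays. The median gene had an SD of 0.67 among the 7 knock-in virgins, and 0.28 without 376 and 198. The other groups had median SDs of 0.27 in wild-type virgins, 0.29 in wild-type and 0.34 in knock-in day-18 mice. Each of the 3 slides held all 4 groups, but slide 1 held only 1 wild-type and slide 3 only 1 knock-in day-18 array. Values within slides rest on these few arrays.

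No gene was called for the interaction (0 of 22382, 0%) by limma, and the smallest adjusted p was 1.00. At an unadjusted p under 0.05 there were 228 genes (1.02%), of which 104 (0.465%) had a positive and 124 (0.554%) a negative interaction. When no gene differs, that threshold passes about 1 in 20 genes on average, so 228 was fewer than chance alone gives. The 0 calls do not show that the interaction is absent. The probe-level fits also called 0 of 35117 kept probes (340 at an unadjusted p under 0.05) and 0 of all 56605 non-control probes (296). Without arrays 376, 184 and 198 no gene was called either; the smallest adjusted p was 0.423, and over all the settings tried it ranged from 0.355 to 1.00. The unadjusted count was then 1205, with 346 positive (1.55%) and 859 negative (3.84%). Array 376 alone moved the count of 228 to 1129, array 184 to 430 and knock-in virgin 384 to 417. From the 21 arrays, leaving out 1 more moved the negative count between 499 (without knock-in day-18 array 239) and 1447, and the positive count between 220 and 669. Knock-in day-18 array 183 and array 239 moved the negative count by over 1.5-fold, and arrays 183, 210 and 211 of that group the positive count. No gene had knock-in arrays entirely above wild-type arrays at one stage and entirely below them at the other (0%). At day 18 alone, all knock-in arrays lay above all wild-type arrays for 99 genes (0.442%) and below them for 181 (0.809%).

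The 2 differences that make up the interaction gave as few calls. In virgins 0 genes (0%) differed by genotype, with 802 at an unadjusted p under 0.05, and at day 18 0 genes (0%), with 441. Stage itself called 9357 genes (41.8%) in wild-type mice and 9658 (43.2%) in knock-in mice. Both called 7962 genes, which are 85.1% of the wild-type and 82.4% of the knock-in calls, and all 7962 moved in the same direction in both genotypes. The interaction is also the knock-in stage effect minus the wild-type stage effect. It was measured with a median standard error of 0.38, and for 10734 genes (48.0%) its 95% interval lay within a 2-fold change either way. Without the 3 arrays the median standard error was 0.28 and 14207 genes (63.5%) had such an interval. For the remaining genes these arrays leave a 2-fold interaction possible. Across genes, the virgin and day-18 genotype differences had a Pearson correlation of 0.47 with all 24 arrays and of 0.06 without the 3; the points share array-wide background and scaling, and genes are not independent replicates.

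**Figure D1:**
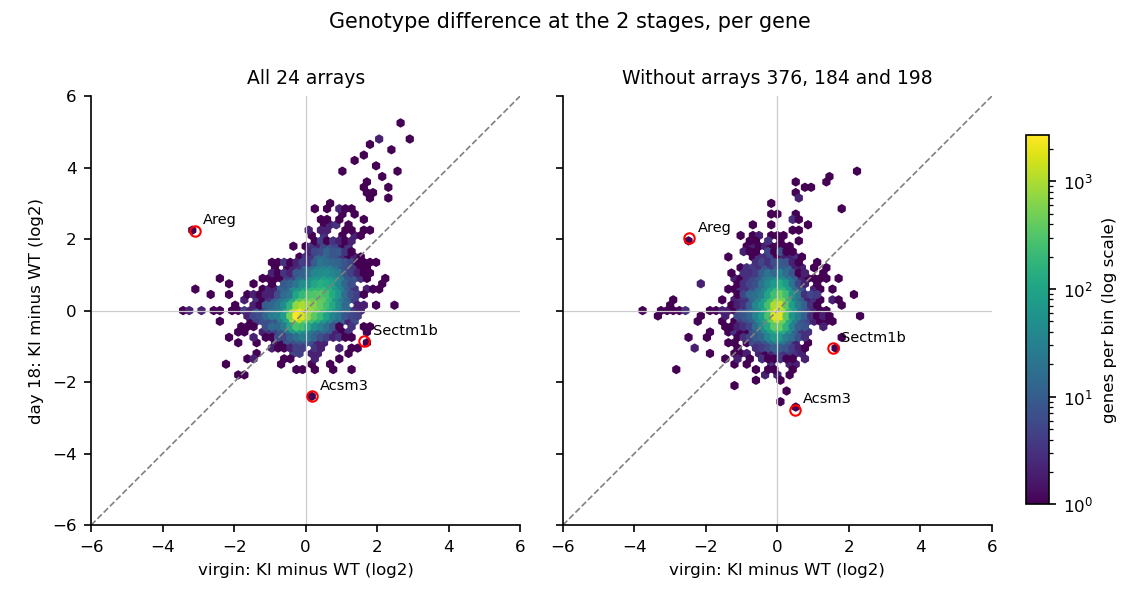
Knock-in (KI) minus wild-type (WT) difference in virgins (x axis, log2) against that at pregnancy day 18 (y axis, log2), as counts of genes per bin on a log colour scale, for all 24 arrays and for the 21 without 376, 184 and 198; a gene with no interaction lies on the dashed line. The cloud is elongated along the line with all arrays (correlation 0.47) and not without the 3 (0.06), and Areg, Sectm1b and Acsm3 lie far from the line in both panels.

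Socs2 itself showed no interaction past the threshold at any of its 4 probes. Of these, 2 are annotated to the RefSeq transcript (A_55_P1992838 at chr10:94875468-94875527 and A_51_P107362 at chr10:94875066-94875125, mm9, minus strand), and the other two to Ensembl transcripts further along the chromosome, called distal here (A_52_P84037 at chr10:94850747-94850806 and A_55_P2072586 at chr10:94848005-94848064). The first 30 of the 60 bases of A_55_P1992838, chr10:94875498-94875527 on the minus strand, identify what was read for the mutated gene; no base is singled out, so there are no capitals.
Socs2 probe A_55_P1992838: tgacagtgtggttcatctgattgactacta
Probes of 60 bases report how much transcript is present and cannot tell R96C from wild type, so genotype was taken from the labels alone.

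At A_51_P107362, the brightest probe, wild-type virgins lay between 0.51 and 2.82 (median 1.47) and knock-in virgins between 0.23 and 2.48 (median 0.76). At day 18 the wild-type values were 0.81, 1.35, 1.45, 1.49 and 1.52, and the knock-in values 1.06, 1.30, 1.30, 1.59 and 1.59. The groups overlapped at both stages. The virgin difference was -0.59 ± 0.35, the day-18 difference 0.04 ± 0.42, and the interaction 0.64 ± 0.55 (95% interval -0.49 to 1.77). An exact two-sided permutation test over all 864864 regroupings of genotype within stage gave p = 0.204, or 0.601 adjusted over the 4 probes. Its null is no genotype difference at either stage, which is narrower than an equal difference at both. At A_55_P1992838 the interaction was 0.58 ± 0.59 (exact permutation p = 0.301, adjusted 0.601).

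The distal probes had higher knock-in than wild-type means at both stages, though neither difference was called. At A_55_P2072586 wild-type virgins lay between -3.58 and -1.92 (median -2.48) and knock-in virgins between -1.92 and 0.08 (median -1.14). At day 18 the wild-type values were -3.66, -3.61, -3.48, -3.31 and -3.10, and the knock-in values -1.54, -1.50, -1.44, -1.39 and -1.37. Knock-in arrays therefore lay above all wild-type arrays at day 18, and in virgins the highest wild-type and the lowest knock-in value were both -1.92. At gene level, knock-in arrays lay above all wild-type arrays at day 18 for 99 genes (0.442%). The difference was 1.57 ± 0.28 in virgins and 1.98 ± 0.34 at day 18, with limma adjusted p values over all kept probes of 0.441 and 0.179. The interaction was 0.41 ± 0.44 (95% interval -0.50 to 1.32). Its exact permutation p was 0.641 (adjusted 0.641) and its unadjusted limma p was 0.358. A genotype difference at both stages, as at the distal probes, widens the permutation spread, so the permutation p is not exact for the interaction there. At A_52_P84037 the differences were 1.39 ± 0.32 and 1.81 ± 0.37, and the interaction was 0.42 ± 0.49 (unadjusted limma p = 0.405, exact permutation p = 0.624, adjusted 0.641). Without the 3 arrays the interactions of the 4 probes, in the order of the plot, were 0.54, 0.71, 0.42 and 0.49. With normexp background correction the interaction was 0.10 at A_52_P84037 and 0.04 at A_55_P2072586, and with array weights the 4 values were 1.04, 1.07, 0.92 and 0.76.

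**Figure D2:**
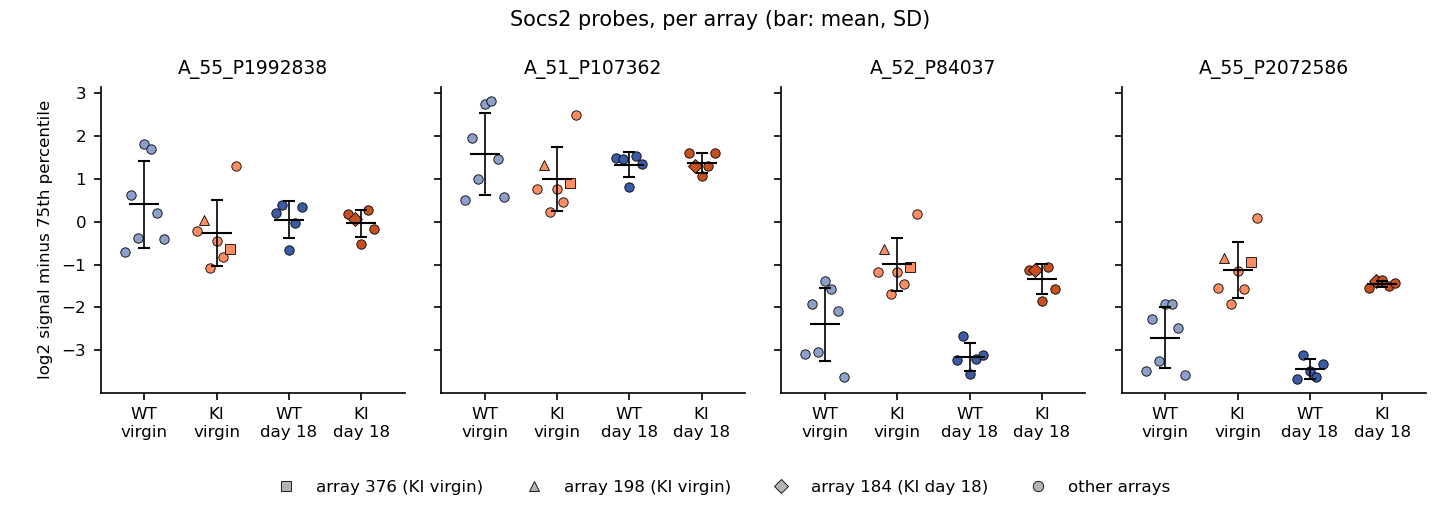
The 4 Socs2 probes, from the reference transcript (left 2 panels) to the distal probes (right 2 panels), as log2 signal relative to the array's 75th percentile on every array; bars give the group mean and SD (n = 7, 7, 5 and 5). The distal probes are higher in knock-in mice at both stages, and the step is of similar size in virgins and at day 18.

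The genes next described were chosen for their small unadjusted p values, with no claim that they changed, and Areg is the first. Amphiregulin, its product, is an EGF receptor ligand induced by oestrogen and needed for ductal outgrowth. It has 1 kept probe, A_52_P482897, and the first 30 bases of it, chr5:91570090-91570119 (mm9, plus strand), are shown because the value rests on this probe alone.
Areg probe A_52_P482897: ctcagaggagtatgataatgaaccacaaat

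Wild-type virgins lay between 0.59 and 3.58 for Areg (median 1.72) and knock-in virgins between -4.80 and 1.25 (median -0.73), the lowest being array 198. At day 18 the wild-type values of Areg were -7.49, -7.43, -7.31, -6.18 and -5.22, and the knock-in values -7.67, -6.35, -3.59, -2.57 and -2.24. The groups overlapped at both stages, and 3 of the 5 knock-in day-18 arrays lay above every wild-type one. Areg was thus 3.10 ± 0.85 log2 units lower in knock-in virgins and 2.24 ± 1.00 higher at day 18. The interaction was 5.34 ± 1.31 (95% interval 2.63 to 8.05; limma adjusted p = 1.00), 4.47 ± 1.28 without the 3 arrays, and 3.29 with normexp background correction. Within the slides, which hold as few as 1 array of a day-18 group, it was 5.07, 7.58 and 2.25. Areg was well above background on all virgin arrays but at day 18 on only 1 of 5 wild-type and 3 of 5 knock-in arrays, so its day-18 difference and its interaction rest partly on signal at background.

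Areg was called lower at day 18 than in virgins in both genotypes; no size is given because of the day-18 background. Areg had the highest interaction of the listed genes of hormone-sensing luminal cells, the ductal cells that carry oestrogen and progesterone receptors. Of 19 listed genes 18 were measured, and 13 had a positive interaction. Areg was the 1 positive gene at an unadjusted p under 0.05, against 0.465% of all genes. The median was 0.34, also 0.34 without array 376 alone, and -0.02 without the 3 arrays. With the 3 left out 9 of 18 were positive. At that threshold Areg alone was then positive and 2 genes were negative, against 1.55% and 3.84% of all genes. Array 198 had the lowest score of all virgins on this list, -1.55. It was set aside partly for its low secretory luminal score, so the fall to -0.02 follows in part from that choice. The median over all genes was 0.05, and -0.04 without the 3 arrays. Pgr, the progesterone receptor, had an interaction of 1.17 ± 0.76, and its other probes gave 2.15 and 1.20. Esr1, the oestrogen receptor, had 0.20 ± 0.42 (0.11 under quantile normalization), and its other probes ran from 0.29 to 0.52. Esr1 changed sign to -0.22 without the 3 arrays. Greb1, an oestrogen-induced gene, had 2.13 ± 1.13, between 1.32 with normexp and 3.46 with array weights. The day-18 groups overlapped for these 3 genes.

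Among the other positive genes, Gm33272, a predicted gene, was lower in knock-in virgins and higher in knock-in mice at day 18. Its virgin values ran from 0.90 to 1.91 in wild type (median 1.46) and from 0.02 to 1.73 in knock-in (median 0.63). At day 18 Gm33272 was at -1.30, -0.69, 0.14, 0.40 and 0.88 in wild type and at 0.43, 0.52, 0.87, 1.28 and 1.50 in knock-in mice. The groups overlapped at both stages. Its interaction was 1.71 ± 0.45, and its other 2 kept probes gave 1.78 and 1.76.

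Basp1, a membrane-bound signalling protein best known from growing axons, ran in virgins from 2.54 to 3.75 in wild type (median 3.15) and from 1.34 to 3.54 in knock-in (median 2.64). At day 18 Basp1 was at 2.09, 2.17, 3.21, 3.27 and 3.36 in wild-type and at 3.16, 3.39, 3.79, 3.82 and 4.54 in knock-in mice. All but 1 of the knock-in day-18 arrays lay above the wild-type range, whereas the virgin groups overlapped widely. The interaction of Basp1 was 1.47 ± 0.47, and within the slides 0.28, 1.59 and 2.43.

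Scube1, a secreted protein with EGF-like repeats, did not overlap between genotypes at day 18, as 99 genes (0.442%) did in that direction. It was at -4.99, -4.73, -4.72, -4.46 and -4.33 in wild type and at -4.22, -3.74, -3.50, -3.40 and -2.96 in knock-in mice. In virgins Scube1 ran from -2.52 to -0.71 (median -1.97) in wild type and from -5.55 to -1.27 (median -2.41) in knock-in mice, where array 198 was lowest. It was well above background on 4 of 5 wild-type day-18 arrays and 6 of 7 knock-in virgin arrays. Its interaction was 1.99 ± 0.66, 1.33 ± 0.43 without the 3 arrays, and 0.81 with normexp background correction.

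Other genes of this group had their larger difference in virgins. Prag1, a pseudokinase scaffold, had a virgin difference of -1.09 ± 0.24 and a day-18 difference of 0.09 ± 0.28, giving an interaction of 1.18; its other probes gave 0.75 and -0.32, so they disagree. Cacna1g, a T-type calcium channel subunit, had -0.77 ± 0.23 and 0.33 ± 0.27, and Stac2, an adaptor of calcium channels, -0.71 ± 0.21 and 0.25 ± 0.25. Plppr3, a neuronal membrane protein, had -0.86 ± 0.37 and 0.83 ± 0.44, but its second probe gave an interaction of 0.28 against 1.69. Tnfrsf12a, the receptor for the cytokine TWEAK, had -0.66 ± 0.26 and 0.51 ± 0.31. The day-18 groups overlapped for each of these 5 genes. All had an adjusted p of 1.00.

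Among the negative genes, Acsm3, Scgb2b20 and Scgb2b2 had knock-in values at day 18 that lay below every wild-type one, as did 181 genes (0.809%). Acsm3, a mitochondrial enzyme that activates medium-chain fatty acids, ran in virgins from -0.68 to 1.07 in wild type (median 0.38) and from -1.32 to 1.41 in knock-in mice (median 0.58). At day 18 Acsm3 was at -2.25, -2.08, -1.73, -1.56 and -1.18 in wild type and at -7.05, -4.12, -3.89, -3.07 and -2.66 in knock-in mice. The day-18 groups did not overlap, and the virgin groups did. The interaction of Acsm3 was -2.56 ± 0.76 (95% interval -4.14 to -0.99), -3.26 ± 0.72 without the 3 arrays, -1.12 with normexp background correction, and -3.41, -2.07 and -1.93 within the slides; the lowest array, 239, was not well above background.

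Sectm1b, a small secreted and transmembrane protein, ran in virgins from -5.86 to -3.87 in wild type (median -5.30) and from -5.29 to -0.92 in knock-in mice (median -3.55). At day 18 Sectm1b was at 0.39, 0.52, 0.94, 1.53 and 1.59 in wild type and at -0.36, 0.00, 0.05, 0.07 and 0.96 in knock-in mice. Knock-in values were mostly above wild type in virgins and mostly below at day 18, with overlap at both. Its interaction was -2.49 ± 0.70, -2.61 ± 0.48 without the 3 arrays, -1.51 with normexp, and -3.22 at its second probe. Sectm1b was well above background on 5 of 7 wild-type and 6 of 7 knock-in virgin arrays and on all day-18 arrays.

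Scgb2b20 and Scgb2b2 are secretoglobins, small secreted proteins encoded by a cluster of close copies on chromosome 7. Their 60-base probes are alike, and 30 bases of each are shown to make this visible; capitals mark their longest shared run of 11 bases, and 25 of the 30 aligned bases (83.3%) are the same.
Scgb2b20 probe A_55_P2058201: gatccaagtgccacCTTGCTGACCTgtcct
Scgb2b2 probe A_55_P2061432: gatctgagtgccatCTTGCTGACCTttctt
The stretches lie at chr7:34149454-34149483 (minus strand) and chr7:32089877-32089906 (plus strand) on mm9. Either probe may bind RNA of the other gene, so the readings are not independent and their assignment is uncertain.

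Scgb2b20 ran in virgins from -4.28 to -3.32 in wild type (median -3.79) and from -4.22 to -1.62 in knock-in mice (median -3.73), the highest being array 376. At day 18 Scgb2b20 was at -1.37, -1.04, -1.02, -0.88 and -0.43 in wild type and at -2.52, -2.30, -2.26, -2.03 and -1.54 in knock-in mice. For Scgb2b2 the day-18 values were -2.48, -2.06, -1.67, -1.52 and -1.01 in wild type and -3.45, -3.41, -3.19, -3.17 and -3.16 in knock-in mice. Neither gene had overlapping genotypes at day 18, and both overlapped in virgins. The interaction of Scgb2b20 was -1.57 ± 0.44 and that of Scgb2b2 -2.16 ± 0.66; without the 3 arrays they were -1.44 ± 0.29 and -1.92 ± 0.45. Scgb2b20 had -0.88 under quantile normalization and Scgb2b2 -1.08 with normexp. Scgb2b2 was well above background on 4 of 7 wild-type and 5 of 7 knock-in virgin arrays.

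Ttll8, a tubulin glycylase, was close to background at day 18, where 4 of 5 wild-type and 2 of 5 knock-in arrays were well above it. Its virgin values ran from -4.55 to -3.45 in wild type (median -3.74) and from -3.97 to -1.89 in knock-in mice (median -3.17). At day 18 Ttll8 was at -5.06, -4.69, -4.69, -4.50 and -4.47 in wild type and at -5.50, -5.43, -5.31, -5.24 and -4.98 in knock-in mice. The knock-in values were higher in virgins and lower at day 18, with overlap at both stages. The interaction of Ttll8 was -1.36 ± 0.36, -1.08 ± 0.28 without the 3 arrays, and -0.42 with normexp background correction.

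Smaller negative values belonged to Hoxd9, a homeobox transcription factor, with -0.92 ± 0.28, to Smyd4, of a methyltransferase family, with -0.67 ± 0.22, and to Lrrc4c, a netrin-G ligand, with -1.49 ± 0.49. Hoxd9 differed mainly in virgins (0.73 ± 0.18 against -0.20 ± 0.21 at day 18). Smyd4 had 0.40 ± 0.14 and -0.27 ± 0.17, and Lrrc4c 0.85 ± 0.32 and -0.64 ± 0.38. Quantile normalization took the interaction of Hoxd9 to -0.40 and of Smyd4 to -0.25, and normexp that of Lrrc4c to -0.75.

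**Figure D3:**
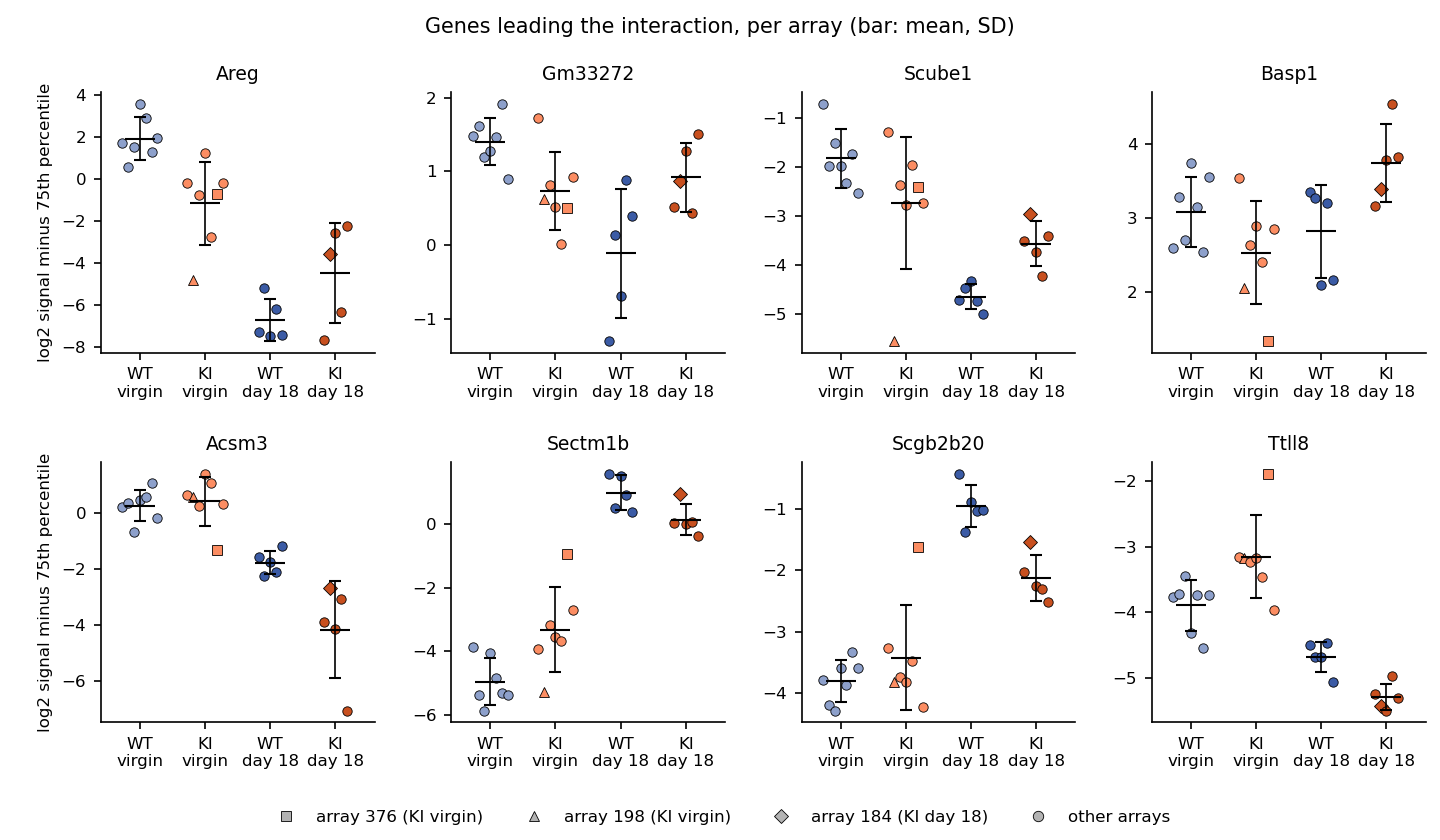
Log2 signal relative to the array's 75th percentile on every array for 4 genes with a positive interaction (top row) and 4 with a negative one (bottom row); bars give the group mean and SD, and arrays 376, 198 and 184 have their own symbols. At day 18 knock-in and wild-type arrays do not overlap for Scube1, Acsm3 and Scgb2b20, while the virgin groups overlap for all 8 genes. Over all genes, the day-18 groups do not overlap for 99 with knock-in above (0.442%) and 181 with knock-in below (0.809%).

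Milk protein genes had the highest median interaction of the mammary lists, but 0 of them were called. Of 19 caseins, whey proteins and other milk proteins listed, 17 were measured, and 0 passed an unadjusted p under 0.05 in either direction, against the 0.465% and 0.554% of all genes above. The median interaction was 1.56, with 15 of 17 positive, and 0.81 without the 3 arrays. With those left out 0 passed that threshold either, and 0 to 4 when 1 more array was left out (moved by wild-type virgins 317, 365 and 369). The median virgin difference was -1.41 (-0.57 without the 3) and the median day-18 difference 0.04 in both sets. All 17 rose with pregnancy in both genotypes, by a median of 8.64 log2 units without and 9.40 with the knock-in allele. The list's score was -2.58 to 2.24 in wild-type virgins (median 0.22) and -3.43 to -0.32 in knock-in virgins (median -1.66). At day 18 it was 6.89, 7.15, 7.31, 7.36 and 7.62 in wild type and 7.20, 7.23, 7.27, 7.34 and 7.53 in knock-in mice. The knock-in range lay inside the wild-type range at day 18, and the virgin ranges overlapped.

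Wap, whey acidic protein, had the highest interaction of the 17. It ran in virgins from -7.72 to 4.61 in wild type (median 0.69) and from -6.33 to -1.05 in knock-in mice (median -4.82). At day 18 Wap was at 8.72, 9.10, 9.25, 9.28 and 9.55 in wild type and at 8.92, 9.06, 9.20, 9.39 and 9.42 in knock-in mice. The day-18 difference of Wap was 0.02 ± 1.68 under the shared spread, which the virgins set, and its interaction 3.35 ± 2.20 (95% interval -1.20 to 7.90). It was well above background on 5 of 7 wild-type and 4 of 7 knock-in virgin arrays.

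Csn2, beta-casein, had an interaction of 2.59 ± 2.17 and Csn1s1, alpha-S1-casein, of 3.33 ± 1.81; the second Csn1s1 probe gave -0.26. Glycam1, a mucin-like milk protein, had 3.01 ± 1.57 and Csn3, kappa-casein, 1.94 ± 1.01, or 0.81 ± 0.42 without the 3 arrays. Spp1, osteopontin, had 1.00 ± 0.52, and 1.77 under quantile normalization. Lalba, the lactose synthase subunit, had 0.40 ± 0.83, and -0.08 without the 3 arrays. Of the 10 genes of milk fat globules, 10 were measured and 0 passed an unadjusted p under 0.05; the median was -0.12, or 0.03 without array 198. With the 3 arrays left out it was -0.33. Then 1 gene was positive and 1 negative at that threshold, against 1.55% and 3.84% of all genes. These counts were 0 to 1 and 0 to 2 when 1 more array was left out. Xdh, xanthine dehydrogenase of the globule coat, had -0.20 ± 0.41, and Olah, the thioesterase that ends medium-chain fatty acid synthesis, 1.23 ± 1.41 (-0.14 with normexp background correction).

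Epithelial marker lists moved with the milk proteins in array 198. The 23 secretory luminal markers were all measured, 0 passed an unadjusted p under 0.05, and their median interaction was 0.80, or 0.14 without the 3 arrays. Their score in virgins was -1.14 to 0.37 in wild type (median 0.05) and -3.71 to 0.28 in knock-in mice (median -0.35); 198 was lowest by far, and wild-type 317 was lowest in its group. Elf5, a master regulator of alveolar fate, was at -5.95 on array 198, against -0.51 on the next lowest knock-in virgin. Its interaction was 1.14 ± 1.13 with all arrays and 0.12 ± 0.53 without the 3. Krt14, a keratin of basal cells, went from 0.99 ± 0.97 to 0.01 ± 0.56. Cldn7, an epithelial tight junction protein, went from 1.39 ± 0.73 to 0.65 ± 0.35. Array 198 was set aside partly for its low secretory luminal score, so these falls follow in part from that choice. The 22 basal and myoepithelial markers had a median of 0.26, or -0.12 without the 3. At an unadjusted p under 0.05, 1 was positive, against 0.465% of all genes. That 1 was Itgb4, an integrin, at 0.85 ± 0.38, and its other probes gave 0.05 and 0.76. Acta2, smooth muscle actin, had 0.27 ± 0.57 and turned to -0.43 ± 0.34, and its other probes gave 0.05, -0.24 and -0.20. The part of epithelial content in the milk protein values was not tested.

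**Figure D4:**
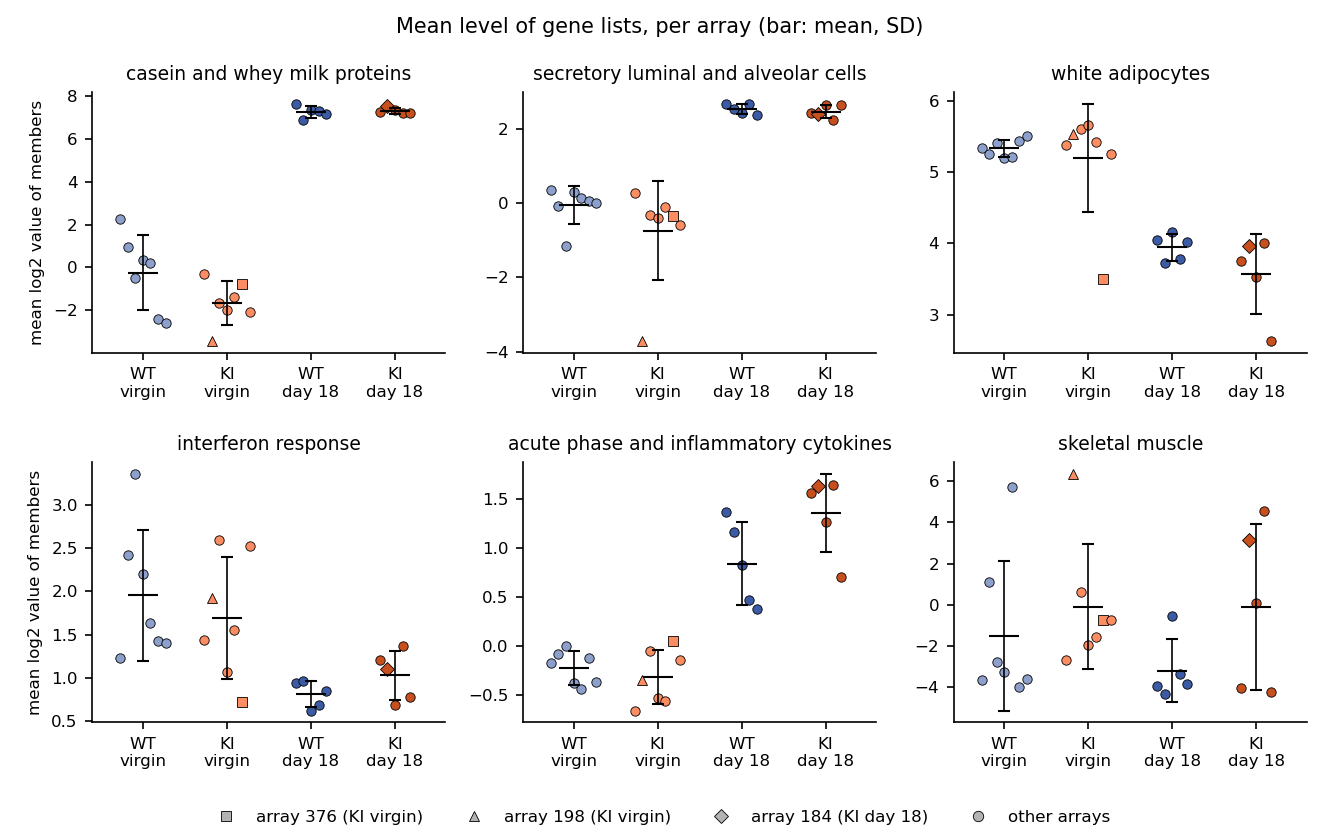
Mean log2 value of the measured members of 6 gene lists on every array, with group mean and SD as bars; arrays 376, 198 and 184 have their own symbols. Milk protein levels spread over several log2 units in virgins and converge at day 18, array 198 is lowest for secretory luminal and highest for skeletal muscle genes, array 376 is lowest among virgins for white adipocyte genes, and array 239 is lowest at day 18.

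Genes of the pathway that SOCS2 restrains had mostly positive values with all 24 arrays, few of them past an unadjusted p under 0.05. Of 24 STAT5 targets and SOCS family genes 23 were measured and 0 were called. The median interaction was 0.31, against 0.05 over all genes, with 21 of 23 positive. It was 0.20 without the 3 arrays, with 13 of 23 positive, and 0.06 without array 376 alone. At an unadjusted p under 0.05, 0 were negative and 1 was positive, against 0.465% of all genes. That 1 was Socs3, a related feedback inhibitor, with -0.64 ± 0.24 in virgins, 0.29 ± 0.29 at day 18 and an interaction of 0.92 ± 0.38. Cish, the SOCS family member most directly induced by STAT5, had 0.87 ± 0.69, with day-18 values of 3.41, 3.46, 3.51, 3.88 and 4.08 in wild type and 3.23, 3.61, 3.64, 3.93 and 4.13 in knock-in mice. The Cish ranges overlapped almost fully. Stat5a, the main prolactin-activated STAT of the gland, had 0.44 ± 0.38, and its other probe gave -0.04.

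Of 20 genes of the prolactin, growth hormone and IGF axis 18 were measured, with a median of 0.21 and 15 of 18 positive. The median was 0.02 without the 3 arrays, with 9 of 18 positive, and 0.07 without array 376 alone. At an unadjusted p under 0.05, 0 were negative and 2 were positive, against 0.465% of all genes. These were Igf1, the growth factor induced by growth hormone, with 0.82 ± 0.35, and Igfals, the carrier subunit of circulating IGF, with 0.56 ± 0.26 (1.02 under quantile normalization). Igf1 ran in virgins from 4.28 to 4.74 in wild type (median 4.46) and from 2.48 to 4.60 in knock-in mice (median 3.89), the lowest being array 376. At day 18 Igf1 was at 1.35, 1.54, 1.80, 1.90 and 1.96 in wild type and at 1.46, 1.63, 1.97, 2.18 and 2.19 in knock-in mice. The groups overlapped at both stages, and without the 3 arrays the Igf1 interaction was 0.51 ± 0.25; its other probes gave 1.08 and -0.08 with all arrays. Prlr, the prolactin receptor, went from 1.19 ± 0.98 to 0.14 ± 0.63 and Ghr, the growth hormone receptor, from 0.32 ± 0.47 to -0.20 ± 0.39. Grb10, an adaptor that dampens insulin and IGF receptors, had 0.55 ± 0.30 (0.30 under quantile normalization), with a day-18 difference of 0.63 ± 0.23. Its other probes gave interactions of 0.15 and 0.11.

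White adipocyte genes had a negative median that grew when the outlying arrays were left out. All 24 listed genes were measured; with 24 arrays 0 passed an unadjusted p under 0.05 and the median was -0.23, with 19 of 24 negative (-0.02 without array 239, and -0.55 without 376). Without the 3 arrays the median was -0.62, all 24 were negative and 11 of 24 had an unadjusted p under 0.05, against 3.84% of all genes in that direction; 0 were called. The count of 11 fell to 3 and the median to -0.35 when knock-in day-18 array 239 was left out as well. It was also moved by over 1.5-fold by wild-type virgin 320, knock-in virgins 251 and 313 and wild-type day-18 arrays 206 and 233, within 3 to 15. The day-18 scores were 3.72, 3.78, 4.02, 4.05 and 4.16 in wild type and 2.63, 3.53, 3.75, 3.97 and 4.00 in knock-in mice, array 239 being lowest. In virgins they were 5.20 to 5.51 in wild type and 3.50 to 5.66 in knock-in mice, array 376 being lowest.

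Adipoq, adiponectin, was at 5.23, 5.47, 5.64, 5.66 and 5.87 in wild-type and at 3.19, 4.55, 5.49, 5.49 and 5.71 in knock-in mice at day 18. Its groups overlapped, with arrays 239 and 210 low; its interaction was -0.45 ± 0.54, and -0.94 ± 0.44 without the 3 arrays. Leaving out array 239 took these to -0.03 and -0.43. Retn, resistin, had an interaction of -0.63 ± 0.45 and a day-18 difference of -0.88 ± 0.35. Without the 3 arrays the interaction went, for Aqp7, the glycerol channel of fat cells, from -0.66 ± 0.32 to -0.92 ± 0.27, and for Dgat2, the last enzyme of triglyceride synthesis, from -0.66 ± 0.51 to -0.99 ± 0.45. The 26 measured genes of fatty acid and triglyceride synthesis, of 27, had a median of -0.13 (-0.41 without the 3). At an unadjusted p under 0.05, 1 was positive, against 0.465% of all genes. That 1 was Lpin2, a phosphatidate phosphatase, at 0.66 ± 0.29 (its other probes ran from -0.31 to 1.42). Without the 3 there were 4 negative, against 3.84% of all genes, or 2 to 7 when 1 more array was left out. That count was moved by over 1.5-fold by knock-in virgins 196, 251, 313 and 384, wild-type day-18 arrays 206, 232, 233 and 234 and knock-in day-18 array 239. The 21 endothelial genes, all measured, had a median of -0.19 (-0.38), with 0 and then 5 negative at an unadjusted p under 0.05, against 0.554% and then 3.84% of all genes. That 5 ranged from 2, without wild-type day-18 array 206, to 7, and was also moved by over 1.5-fold by wild-type arrays 317 and 235 and knock-in arrays 313, 314 and 239. Sox18, an endothelial transcription factor, had -0.38 ± 0.37, then -0.76 ± 0.21, but 0.14 under quantile normalization, and Esam, an endothelial adhesion molecule, -0.35 ± 0.21, then -0.54 ± 0.18.

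Acute phase and interferon genes had positive medians. Of 21 acute phase and cytokine genes 19 were measured; 0 passed an unadjusted p under 0.05, the median was 0.80 and 15 were positive. Leaving out the 3 arrays gave a median of 0.52, and 4 were positive at that threshold, against 1.55% of all genes; the 4 became 1 to 5 when 1 more array was left out. Wild-type arrays 188, 365, 233 and 235 and knock-in arrays 384, 211 and 210 each moved it by over 1.5-fold. The day-18 scores were 0.38, 0.47, 0.83, 1.16 and 1.37 in wild type and 0.70, 1.27, 1.56, 1.63 and 1.64 in knock-in mice, and the ranges overlapped. Saa1, a serum amyloid A protein, was at 4.97, 5.66, 6.23, 6.46 and 6.97 in wild-type and at 5.21, 7.40, 7.51, 7.58 and 7.65 in knock-in mice at day 18; 4 of 5 knock-in arrays lay above every wild-type one, and array 239 did not. Its interaction was 0.99 ± 0.59, and that of Saa3 1.86 ± 0.97. Saa3 had the same array low, at 0.40 against 2.40 to 2.62 in the other knock-in mice.

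All 30 interferon response genes were measured, with a median of 0.52 (0.34 without the 3 arrays) and 29 of 30 positive, but 0 passed an unadjusted p under 0.05 in either set. Without wild-type virgin 317 these medians were 0.24 and 0.07, and without array 376 alone the first was 0.28. Their score ran from 1.23 to 3.36 in wild-type virgins and from 0.72 to 2.60 in knock-in virgins. At day 18 it was 0.62, 0.69, 0.85, 0.94 and 0.96 in wild type and 0.68, 0.78, 1.10, 1.20 and 1.37 in knock-in mice, with overlap at both stages. Oas2, an antiviral synthetase, had 1.02 ± 0.54 and Mx1, an antiviral GTPase, 1.03 ± 0.70. The 23 macrophage genes, all measured, had a median of 0.09. Cx3cr1, a chemokine receptor, was the 1 positive gene at an unadjusted p under 0.05, against 0.465% of all genes. It had 0.67 ± 0.29, and 1.24 under quantile normalization, but its other probe gave 0.19 ± 0.36. The 20 measured immediate early genes, of 22, had a median of 0.41. Egr2, an early growth response factor, was the 1 positive gene at that threshold, at 1.62 ± 0.59, against 0.465% of all genes. Nr4a1, an orphan nuclear receptor, had 1.36 ± 0.80.

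Skeletal muscle genes, which mark tissue next to the gland, had the highest median of the 31 lists, 1.74 (2.10 without the 3 arrays), and 0 of 20 passed an unadjusted p under 0.05. Without knock-in day-18 array 211 these medians were 0.47 and 0.25. Their scores were 6.35 on knock-in virgin 198, 5.72 on wild-type virgin 320, and 4.56 and 3.17 on knock-in day-18 arrays 211 and 184, against -4.31 to 1.09 on the other 20 arrays. Tnni2, a fast troponin, had 2.71 ± 2.76 and Myl1, a myosin light chain, 2.17 ± 1.67. Of the nerve and Schwann cell genes, Gfra3, a neurotrophic factor receptor, had an interaction of -0.80 ± 0.35 (-0.21 with normexp), and its groups did not overlap at day 18. Over all genes, the day-18 groups did not overlap for 99 with knock-in above (0.442%) and 181 with knock-in below (0.809%). Of 18 skin and hair genes 10 were measured, and 7 had a positive interaction. Sprr1a, a cornified envelope protein, was the 1 positive gene at an unadjusted p under 0.05, against 0.465% of all genes. It was not well above background on any day-18 array, so no fold is given. The part of muscle and nerve tissue in other interactions was not tested.

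Lists of basic functions had the largest shares of intervals within 2-fold. All 63 ribosomal protein genes were measured; the median was 0.16 and 55 of 63 intervals lay within a 2-fold change, or 61 without the 3 arrays, when the median was -0.13. For 30 of 32 measured oxidative phosphorylation genes, of 36 listed, the interval lay within 2-fold, with a median of -0.04, and for 17 of 25 ER chaperone and unfolded protein genes, with a median of 0.22. The oxidative phosphorylation median was -0.36 without array 376 alone. Without the 3 arrays it was -0.28, with all 32 genes negative and all 32 intervals within 2-fold. Of these, 3 had an unadjusted p under 0.05 (1 to 6 when 1 more array was left out), against 3.84% of all genes. Hspa5, the chaperone BiP, had 0.44 ± 0.32 (95% interval -0.22 to 1.10). Ndufa4, of the respiratory chain, had -0.19 ± 0.38, or -0.52 without the 3 arrays. Rpl13a, of the large ribosomal subunit, had 0.32 ± 0.36, or 0.02 without them. The 31 measured cell cycle genes, of 32, had a median of -0.13 and 0 passed an unadjusted p under 0.05; Mki67, the proliferation marker Ki-67, had 0.26 ± 0.73 and Cdk1, the mitotic kinase, -0.78 ± 0.68, which quantile normalization took to 0.80 and -0.17. The medians of the macrophage, cell cycle and oxidative phosphorylation lists changed sign under at least 1 other scaling or background setting. Intervals within 2-fold held for only 8 of 31 cell cycle genes and for 0 of 17 milk protein genes.

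**Figure D5:**
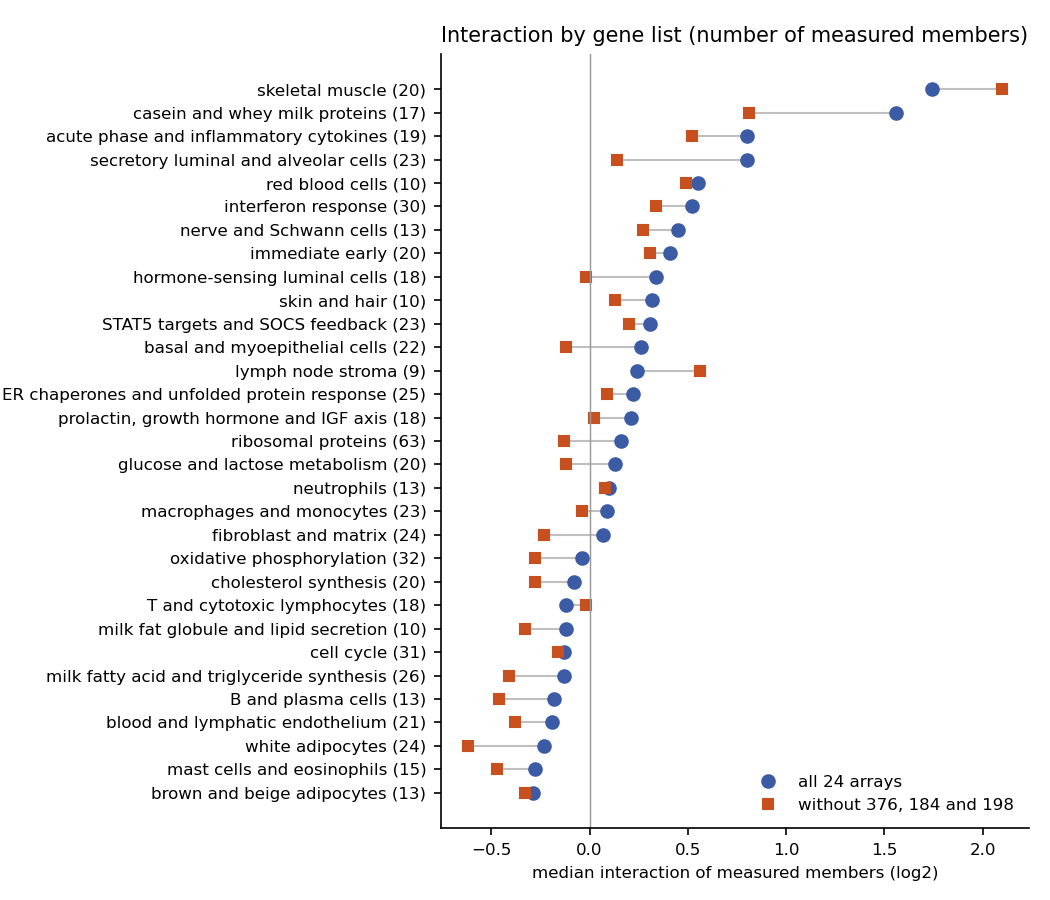
Median interaction (log2) of the measured members of each of 31 gene lists, with all 24 arrays (circles) and without 376, 184 and 198 (squares); the number of measured members is in parentheses. Skeletal muscle and milk protein genes have the highest medians, and the median moves toward 0 for secretory luminal genes and away from 0 for white adipocyte genes when the 3 arrays are left out.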

How the data were processed

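Each of 24 mammary gland RNA samples was hybridised to 1 array of 62976 spots. The authors deposited 1-colour scanner output in which each spot is a fluorescence intensity, made with Agilent Feature Extraction 12.0.3.2, per the submitters' processing notes. The authors also deposited a value table whose values match log10 of those intensities within 0.005, used here as an alternative. Groups came from the labels; 0 columns of other samples were present.

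Processed intensities of the 59305 non-control spots were scaled by each array's 75th percentile and turned to log2. Spots of a probe were averaged (56605 probes). A probe was kept where 80% or more of any group's arrays had it well above background (35117 probes), and the probe of highest mean stood for its gene (22382 genes, 8109 with several probes). limma 3.58.1 in R 4.3.3 fitted 4 group means without covariates, with Benjamini-Hochberg adjustment over all genes; the labels give each mouse its own number. The fit was tested on simulated data. Of the probes, 35405 were named by accession, 9124 by current symbol and 25 by synonym through a RefSeq gene table, and 12051 kept the name in the file. Probe sequences and mm9 positions came from the deposited files. The number of arrays limits the precision, and nothing but the labels says that animals were handled separately.

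The comparison, its genes and the 31 lists were chosen with earlier results of these data known. The naming rule was Socs2, the 12 genes of smallest p in each direction, the 3 of smallest p in each list and a set of key genes. It gave 135 entries on 128 genes; 66 are named and 62 left out, and which were named was chosen after their values were seen; 1 result is not reported here. Alternatives were another scaling, background correction, probe filter or probe choice, slide as a block, array weights and arrays left out.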

Additional observations from a re-analysis of the deposited data

Results flagged for a closer look

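In 54 of 396 groups of values examined, 1 array lay far from the rest of its group; chance gives about 1 in 20. Of these, 21 were at knock-in virgin 376. Its negative-control spots averaged 346.5 and 57003 of its spots were well above background. It was highest in its group for Ttll8 (-1.89), Scgb2b20 (-1.62), Lrrc4c (-0.78), Olah (0.80) and Saa1 (0.25). It was lowest for Acsm3 (-1.32), Esr1 (0.49), Igf1 (2.48), Adipoq (5.28), Aqp7 (-0.31), Retn (5.49), Sox18 (-1.08), Ndufa4 (2.49) and Rpl13a (3.65). Its list scores stood apart for STAT5 targets (0.30), fibroblasts (2.76), white adipocytes (3.50), oxidative phosphorylation (3.21) and ribosomal proteins (4.33).

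Knock-in virgin 198 stood apart for Scube1 (-5.55), Csn3 (-2.47), Lalba (-3.24), Elf5 (-5.95) and Cldn7 (-3.43), and for the secretory luminal (-3.71) and skeletal muscle (6.35) scores. Wild-type virgin 317 was lowest for Csn3 (2.62), Elf5 (-1.21) and Krt14 (0.25) and for the secretory luminal (-1.14), hormone-sensing luminal (0.43) and basal (1.13) scores. Other virgins that stood apart were wild-type 188 for Cx3cr1 (0.54) and ER chaperones (2.25), 365 for Saa3 (1.27), 320 for Myl1 (7.31), 256 for oxidative phosphorylation (4.92) and 369 for ribosomal proteins (6.47), and knock-in 196 for Cdk1 (-0.66).

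At day 18, wild-type 233 stood apart for Socs2 (0.81), Tnni2 (2.12) and skeletal muscle (-0.53), 232 for Smyd4 (-1.65), 206 for Cldn7 (4.26), 235 for Ghr (2.67), and 234 for Grb10 (-1.57) and fibroblasts (2.08). Knock-in 184 stood apart for Smyd4 (-1.12), glucose metabolism (3.01) and brown adipocytes (0.42), and knock-in 239 for Saa3 (0.40) and Saa1 (5.21).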

How the results depend on the processing

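The count of 0 interaction calls and of 0 crossing genes held in every setting run. The 228 genes at an unadjusted p under 0.05 became 354 under quantile normalization, 133 under spike-in scaling, 1496 with array weights, 1336 without 376 and 184, 1205 without 376, 184 and 198, and 159 to 1129 with 1 array left out. Their positive share, 45.6%, became 85% under spike-in scaling, 66.1% under normexp and 30.1% under median scaling; spike-in scaling moved the median of all genes from 0.05 to 0.14. The 10734 intervals within 2-fold became 1186 under median scaling and 16375 under normexp. Genotype calls in virgins became 41 with array weights and 1 without the 3 arrays; those at day 18 became 2 without 376 and 184 and 1 without the 3. Stage calls in wild type became 5316 under median scaling, 14807 under spike-in scaling and 14043 with array weights, and in knock-in mice 5068 under median scaling. The cause was not tested.

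Signs turned for Sox18 (0.14, quantile), Olah (-0.14, normexp), Acta2 (-0.03 as the mean of probes, -0.19 with array weights), Mki67 (-0.11) and Rpl13a (-0.04) with array weights. Without 376 and 184, Acta2 was -0.08, Esr1 -0.15, Ghr -0.08 and Mki67 -0.02. Without the 3 arrays, Acta2 was -0.43, Esr1 -0.22, Ghr -0.20, Lalba -0.08 and Mki67 -0.02. With 1 array left out, Lalba ran from -0.06 (without 198) to 0.77, Acta2 from -0.04 to 0.54, Esr1 from -0.06 to 0.41 and Mki67 from -0.04 to 0.60. No paired analysis was possible because the labels give every mouse a different number.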
